A study of Mus musculus with 90 samples.

Results

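Expression was followed for 8 genes of programmed cell death, Casp1, Casp4, Casp8, Mlkl, Ripk3, Gsdmd, Fas and Tnfrsf10b. They were chosen by name, with earlier results of these data known, and matched by Ensembl identifier among the 53697 genes of the count table. Transcripts were counted at their 3′ ends (3′ digital gene expression) in 2 cultured mouse tumour lines, YUMM2.1 from a melanoma and CT26 from a colon carcinoma. Each line had 45 samples in 15 groups of 3. Control cultures received no IFNγ and were collected at 0, 1, 2 and 3 weeks. Some figures mark them BSA, for bovine serum albumin. The study names BSA as the control of its separate 2-week cultures, and describes the 0-week control of this time course as untreated. Naïve cells received 50 IU/mL IFNγ for 2 h or 24 h at 0 weeks. Chronically exposed cells stayed at 50 IU/mL during 1, 2 or 3 weeks. They were then taken as they were (0 h) or rechallenged with fresh IFNγ for 2 h or 24 h. All controls were 0 h samples, so the 2 h and 24 h groups of naïve cells were both set against the same 0-week control. The labels mention triplicate experiments without saying whether the samples of a group were separate cultures, and p-values therefore measure the spread between these samples, which may be technical.

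A YUMM2.1 sample held 274719 to 3161276 counts and a CT26 sample 295157 to 2205285. A total under 25% of the line's median was found in 3 samples: replicate 3 of the 3-week IFNγ group without rechallenge in both lines, and replicate 3 of the 1-week IFNγ group without rechallenge in CT26. Of 7 melanocyte markers, Sox10, a neural crest transcription factor, was the 1 that separated the lines. It was counted in every YUMM2.1 sample (11.9 to 53.8 CPM, counts scaled to a common library total) and in no CT26 sample, whereas Mlana, Tyrp1 and Pmel had 1, 0 and 19 counts over the 45 YUMM2.1 samples. Tyr, Dct and Mitf had 15, 56 and 144 counts in YUMM2.1 and 21, 127 and 147 in CT26. The keratin genes Krt18 and Krt20 were counted in every CT26 sample, whereas Epcam, Cdh1, Cldn4 and Vil1 had no count in that line. The leukocyte markers Cd3e, Adgre1 and Tyrobp had no count in either line, whereas the others were counted. Cd68 had 451 counts in YUMM2.1 (up to 21.8 CPM) and 159 in CT26 (up to 12.8 CPM). In the same order of lines, Fcer1g had 162 and 2 counts, Cd74 69 and 3, and Lyz2 61 and 26. Ptprc had 11 and 67 counts, and Itgam 5 and 0. The summed level of the 9 leukocyte markers was 2.04 to 24.5 CPM in YUMM2.1 and 1.35 to 16.7 CPM in CT26.

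Fas and Tnfrsf10b encode death receptors of the tumour necrosis factor receptor family, which respond to Fas ligand and TRAIL and recruit the initiator caspase encoded by Casp8. When caspase-8 is not active, the kinase encoded by Ripk3 can phosphorylate the pseudokinase encoded by Mlkl, which then breaches the plasma membrane in necroptosis. In pyroptosis, inflammasomes activate caspase-1 (Casp1) and cytosolic lipopolysaccharide activates caspase-11 (Casp4), and both proteases cleave gasdermin D (Gsdmd) into a form that makes membrane pores. IFNγ acts on promoters through gamma-activated sites and through interferon regulatory factors such as IRF1.

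Promoter sequences, from 250 bases before to 50 bases after the annotated start, were found in RefSeq (GRCm38.p6) for 6 of the 8 genes. They were searched on both strands for the gamma-activated site TTCNNNGAA, which is its own reverse complement, and for the interferon-stimulated response motif, GAAA followed by any 2 bases and GAAA again. The former was present in 8.3% of 32851 promoters and the latter in 3.44%. The promoters of the 2 genes whose RNA rose in both lines, Casp1 and Mlkl, are shown with that of Fas, the only promoter of the 6 that held either motif, and that of Casp12, a neighbour of Casp1 and Casp4 that rose in both lines. Capitals mark matches to TTCNNNGAA, and every sequence reads 5′ to 3′ on the strand of its gene.
Casp1, chr9:5298267-5298566, plus strand: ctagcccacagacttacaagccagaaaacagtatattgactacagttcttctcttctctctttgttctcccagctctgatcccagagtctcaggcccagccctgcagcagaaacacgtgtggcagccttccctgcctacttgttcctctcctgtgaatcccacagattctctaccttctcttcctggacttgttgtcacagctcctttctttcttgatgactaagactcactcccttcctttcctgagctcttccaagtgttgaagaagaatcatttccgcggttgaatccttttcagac
Mlkl, chr8:111338156-111338455, minus strand: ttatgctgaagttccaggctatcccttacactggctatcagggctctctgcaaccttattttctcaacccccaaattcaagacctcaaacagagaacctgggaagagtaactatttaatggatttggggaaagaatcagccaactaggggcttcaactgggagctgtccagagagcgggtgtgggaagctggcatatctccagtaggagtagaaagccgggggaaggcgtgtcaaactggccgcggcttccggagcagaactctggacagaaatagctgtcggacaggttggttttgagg
Fas, chr19:34290409-34290708, plus strand: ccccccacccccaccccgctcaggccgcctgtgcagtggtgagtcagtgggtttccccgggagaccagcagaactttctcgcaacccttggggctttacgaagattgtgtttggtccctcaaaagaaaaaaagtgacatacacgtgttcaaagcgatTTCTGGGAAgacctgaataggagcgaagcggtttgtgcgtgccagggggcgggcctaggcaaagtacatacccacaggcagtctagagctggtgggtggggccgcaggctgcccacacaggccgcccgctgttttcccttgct
Casp12, chr9:5345226-5345525, plus strand: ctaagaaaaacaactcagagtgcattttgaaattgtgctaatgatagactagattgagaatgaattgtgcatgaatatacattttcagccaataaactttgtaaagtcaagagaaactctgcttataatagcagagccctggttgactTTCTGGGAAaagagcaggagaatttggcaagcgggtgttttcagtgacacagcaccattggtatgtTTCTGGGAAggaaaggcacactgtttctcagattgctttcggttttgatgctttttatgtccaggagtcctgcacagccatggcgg
The Casp1 and Mlkl windows held neither motif. The match in Fas began 93 bases before the start, and the 2 matches in Casp12 began 102 and 36 bases before it. A match describes the letters only, and none of these windows was tested for binding.

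The genes differed in how well they could be measured. The filter on low counts kept Casp1, Casp8, Mlkl, Fas and Tnfrsf10b in YUMM2.1 (5 of 8 genes, among 9589 genes tested) and Casp1, Mlkl, Gsdmd and Tnfrsf10b in CT26 (4 of 8 genes, among 8516 genes tested). Casp4 and Ripk3 passed in neither line. Over all IFNγ groups against all controls, 2 of the 5 tested genes rose in YUMM2.1, where 5.38% of all tested genes were higher and 11.5% changed in either direction. In CT26, 3 of the 4 tested genes rose, where 6.29% of all tested genes were higher and 14.2% changed in either direction. None of the tested genes of the set was lower in this comparison in either line. In bulk RNA, a larger share of responding cells and more RNA per cell cannot be told apart.

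**Figure D1:**
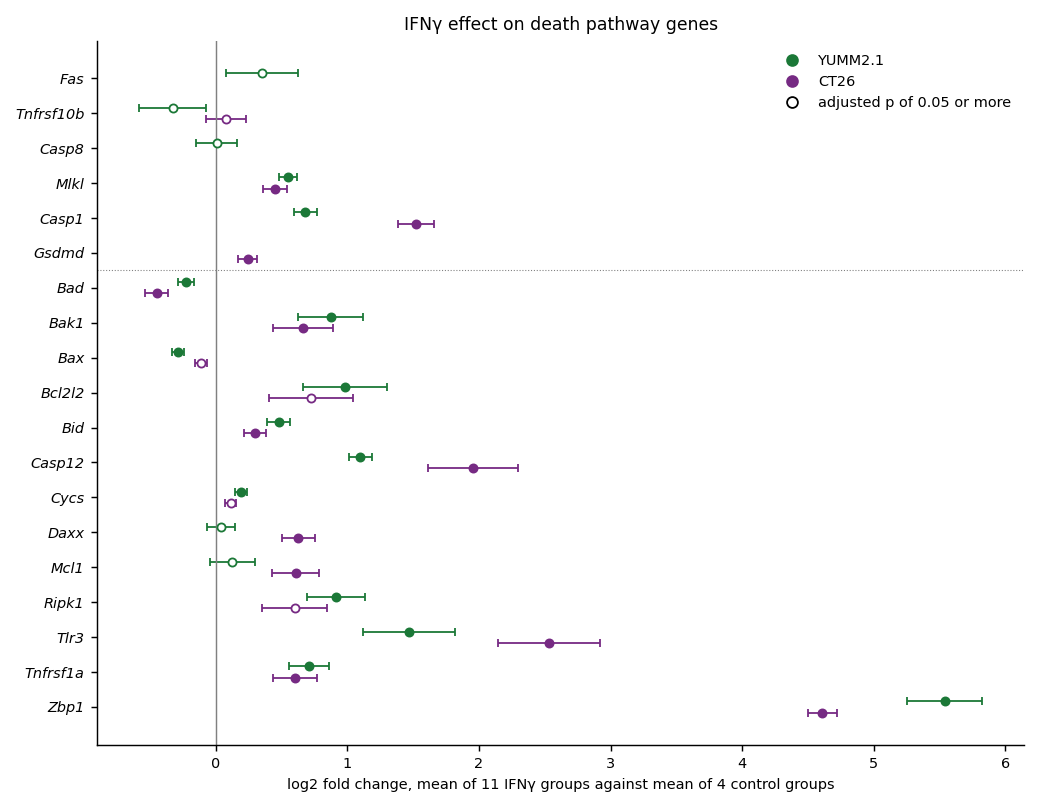
Log2 fold change (x axis) of the death pathway genes (y axis) between the mean of the 11 IFNγ groups and the mean of the 4 control groups, by edgeR, in YUMM2.1 (green) and CT26 (purple), with bars of 1 standard error; open circles mark an adjusted p of 0.05 or more and the dotted line separates the 6 tested genes of the set from other genes of the pathways. Casp1 and Mlkl lie to the right of 0 in both lines, at 0.68 and 0.55 in YUMM2.1 and at 1.52 and 0.45 in CT26.

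Casp1, on chromosome 9 from 5298517 to 5307265 (GRCm38, plus strand), had the largest IFNγ effect of the tested genes of the set in both lines. In YUMM2.1, the 12 control samples ranged from 30.04 to 47.7 CPM with a median of 40.6, and the 33 IFNγ samples from 38.5 to 102.9 CPM with a median of 61.6. The 2 ranges overlapped, and 28 of the 33 IFNγ samples exceeded every control. Casp1 rose by 0.68 on the log2 scale (standard error, SE, 0.087, adjusted p = 6.96e-08, edgeR quasi-likelihood test). The CT26 controls ranged from 4.95 to 14.0 CPM with a median of 7.78, and the IFNγ samples from 9.39 to 50.7 CPM with a median of 23.8. Of these 33 samples, 29 exceeded every control, and the rise was 1.52 (SE 0.14, adjusted p = 4.36e-12, edgeR). Both rises kept their direction and stayed past the threshold in all 8 alternatives, with values of 0.61 to 0.79 (YUMM2.1) and 1.42 to 1.65 (CT26).

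In naïve cells of both lines, Casp1 passed the test at 24 h and not at 2 h, and the 2 times were not tested against each other. In YUMM2.1, the 3 controls at 0 weeks had 33.03, 43.6 and 30.04 CPM, the 3 samples at 2 h had 38.9, 38.5 and 39.0 CPM, and the 3 samples at 24 h had 65.8, 69.2 and 70.3 CPM. The 2 h samples lay among the controls, and the 24 h samples lay above all of them. At 24 h, Casp1 was higher by 0.99 (SE 0.21, adjusted p = 0.0046, edgeR), and at 2 h the difference of 0.16 (SE 0.22) did not pass the test. In CT26, the controls had 5.63, 4.95 and 8.83 CPM, the 2 h samples 12.8, 10.2 and 11.9 CPM, and the 24 h samples 21.6, 20.2 and 20.6 CPM. Here each group lay wholly above the one before it. The log2 difference was 0.83 at 2 h (SE 0.34, adjusted p = 1, edgeR), where 0 of the 4 tested genes were called, and 1.65 at 24 h (SE 0.35, adjusted p = 0.00185, edgeR).

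At 24 h in naïve cells, Casp1 and Mlkl were the 2 called genes in each line, against 0.886% of all tested genes in YUMM2.1 and 2.04% in CT26. At 2 h, no gene of the set was called by edgeR or by DESeq2, against 0.24% of all tested genes in YUMM2.1 and 0.235% in CT26, and 0 of 5 and 2 of 4 had an unadjusted p below 0.05. The calls at 24 h were lost when samples were left out. For Casp1 in YUMM2.1 the adjusted p rose to 0.0834, 0.0523 and 0.255 without replicate 1, 2 or 3 of every group, and in CT26 to 0.102 and 0.0523 without replicate 1 or 2, with differences that stayed between 0.85 and 1.65.

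Under chronic exposure, Casp1 rose above its control of the same week in CT26 at 2 and 3 weeks. At 2 weeks without rechallenge, the controls had 8.78, 6.84 and 5.74 CPM and the IFNγ samples 17.7, 28.3 and 26.3 CPM, with no overlap and a difference of 1.73 (SE 0.33, adjusted p = 0.000798, edgeR). At 3 weeks, the controls had 11.4, 13.9 and 8.29 CPM and the IFNγ samples 23.5, 32.3 and 29.8 CPM, again with no overlap and a difference of 1.35 (SE 0.31, adjusted p = 0.00376, edgeR). At 1 week in that line, the controls had 7.28, 6.06 and 14.0 CPM and the IFNγ samples 16.3, 14.7 and 9.39 CPM. These groups overlapped through the 9.39 CPM of replicate 3, a sample with a low total, whereas the others lay above every control of that week. The difference of 0.60 (SE 0.35) did not pass the test. Casp1 was the 1 gene of the set called at 2 weeks and at 3 weeks in CT26, against 1.67% and 7.23% of all tested genes, and at 1 week 0 of the 4 were called by edgeR or DESeq2, with 1 at an unadjusted p below 0.05, against 0.728%. Without replicate 3 the adjusted p of Casp1 was 0.0528 at 2 weeks and 0.052 at 3 weeks, and without replicate 2 it was 0.0543 at 3 weeks.

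The corresponding YUMM2.1 differences did not pass the test. They were 0.60 at 1 week (SE 0.20), 0.78 at 2 weeks (SE 0.21) and 0.67 at 3 weeks (SE 0.21), with adjusted p of 0.331, 0.0517 and 0.142 by edgeR. At 2 weeks the controls had 40.1, 47.7 and 30.7 CPM and the IFNγ samples 55.1, 71.3 and 76.0 CPM. In all 3 weeks the 3 IFNγ samples lay above the 3 controls. In YUMM2.1, edgeR called 0 of the 5 tested genes at each week, against 0.73%, 1.12% and 0.97% of all tested genes, with 1, 2 and 3 genes at an unadjusted p below 0.05, and DESeq2 called 0, 1 and 0.

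**Figure D2:**
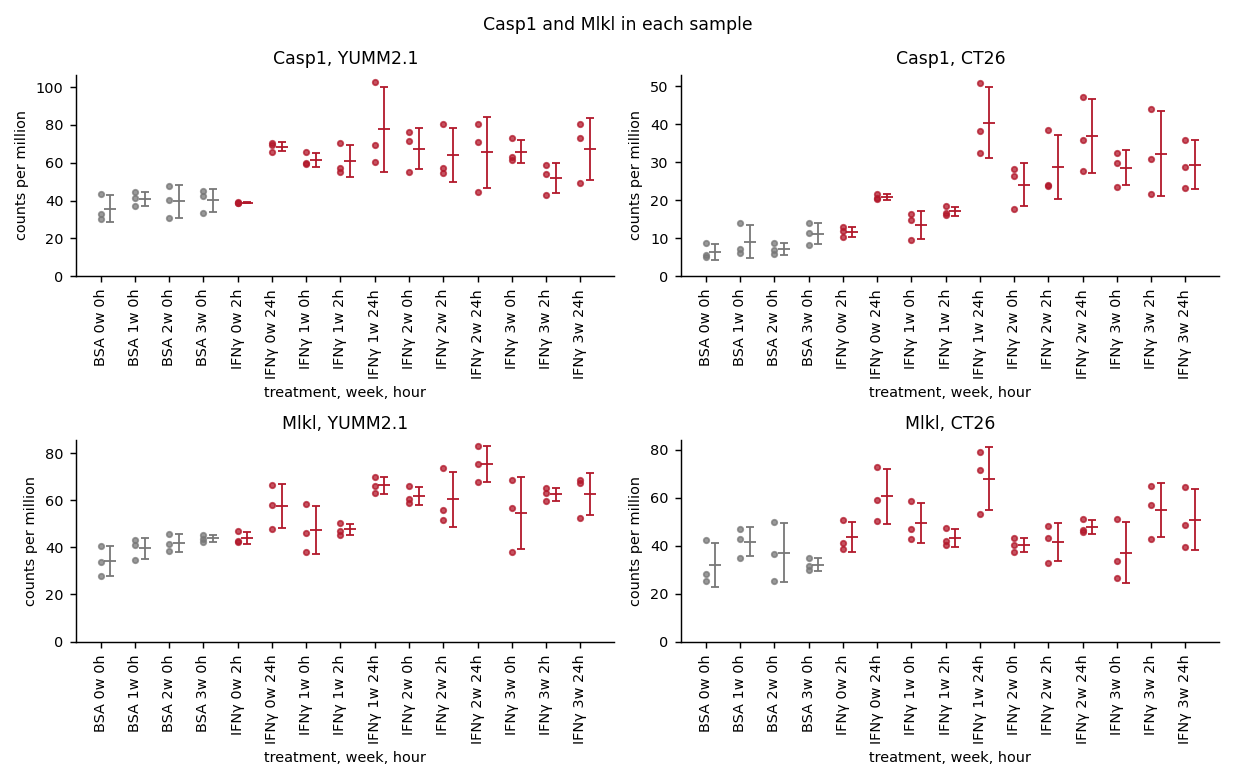
CPM (y axes, starting at 0) of Casp1 and Mlkl in every sample of YUMM2.1 (left) and CT26 (right) by treatment, week and hour (x axes). Grey points are controls (marked BSA), red points are IFNγ samples, and the bar beside each group is its mean with 1 SD (n = 3). The YUMM2.1 controls of Casp1 sit between 30.04 and 47.7 and its naïve 24 h samples between 65.8 and 70.3, and the CT26 group of 1 week with 24 h of rechallenge has the highest Casp1 mean of that line, at 40.4.

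Rechallenge raised Casp1 further in 1 comparison. In CT26 after 1 week of IFNγ, the samples without rechallenge had 16.3, 14.7 and 9.39 CPM and those 24 h after fresh IFNγ had 32.4, 50.7 and 38.1 CPM. The 9.39 CPM came from replicate 3, a sample with a low total. The groups did not overlap, and the difference was 1.47 (SE 0.30, adjusted p = 0.00262, edgeR), which was lost without replicate 1 (adjusted p = 0.0571) and without replicate 2 (adjusted p = 0.159). It was the 1 call among the 4 tested genes, against 1.32% of all tested genes. After 2 weeks the 24 h difference was 0.62 (SE 0.25, adjusted p = 0.558, edgeR), and after 3 weeks it was 0.078 (SE 0.29, adjusted p = 0.996, edgeR). In YUMM2.1 the 24 h differences after 1, 2 and 3 weeks were 0.31, 0.012 and 0.056, none past the test, and the 2 h differences in both lines lay between -0.31 and 0.25.

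In the remaining rechallenge comparisons no gene of the set was called by edgeR or DESeq2. The share of all genes called there was 0.615% and 1.42% at 2 h and 24 h after 1 week in YUMM2.1, 0.428% and 0.615% after 2 weeks, and 1.08% and 0 after 3 weeks. In CT26 it was 0.376% at 2 h after 1 week, 0.305% and 0.658% after 2 weeks, and 0.0117% and 0 after 3 weeks. At most 1 gene of the set had an unadjusted p below 0.05 in any of these comparisons.

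The difference between the 24 h response after 3 weeks and that of naïve cells was tested as an interaction. For Casp1 it was -1.58 in CT26 (SE 0.45, adjusted p = 0.0882) and -0.93 in YUMM2.1 (SE 0.30, adjusted p = 0.291), by edgeR. Neither passed, and 0 genes of the set were called at 2 h or 24 h in either line by edgeR or DESeq2, with 1 or 2 genes at an unadjusted p below 0.05 in each comparison. The shares of all tested genes called were 0.615% and 1.2% at 24 h in YUMM2.1 and CT26, and 0.115% and 0.211% at 2 h.

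Ordered by group mean, the Casp1 levels of YUMM2.1 fell into a low range and a high range. The 4 control groups (35.6 to 41.0 CPM) and the naïve 2 h group (38.8 CPM) were lowest and lay closer to each other than the largest SD among them, 8.51 CPM. The 3-week group at 2 h of rechallenge followed at 51.8 ± 8.07 CPM (SD, n = 3), and the other 9 IFNγ groups had means from 60.9 to 77.6 CPM, with neighbours closer to each other than the larger SD of the pair. In CT26, the controls had means of 6.47, 7.12, 9.12 and 11.2 CPM, followed by naïve 2 h (11.7 CPM), 1 week at 0 h (13.5 CPM) and 1 week at 2 h (17.1 CPM). The highest means were 36.9 ± 9.74 and 40.4 ± 9.37 CPM (SD, n = 3), both at 24 h of rechallenge, after 2 weeks and 1 week. The 3-week and 0-week controls of Casp1 differed by 0.73 in CT26 (SE 0.35, adjusted p = 0.398, edgeR) and by 0.22 in YUMM2.1 (SE 0.21, adjusted p = 0.883, edgeR). No gene of the set was called between these controls by edgeR or DESeq2, with 0 and 1 genes at an unadjusted p below 0.05 in YUMM2.1 and CT26, against 0.521% and 0.916% of all tested genes.

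Casp4 lies 1.56 kb downstream of Casp1 and did not pass the filter on low counts in either line. Over the 45 YUMM2.1 samples it had 216 counts, with 0.457 to 3.63 CPM in the controls (median 2.53) and 0 to 8.28 CPM in the IFNγ samples (median 3.03), and the ranges overlapped. In CT26 it had 27 counts, with at least 1 count in 19 of 45 samples. With no filter on low counts, the IFNγ effect in YUMM2.1 was 0.48 (SE 0.32, adjusted p = 0.707, edgeR). The highest group mean in YUMM2.1 was 6.67 ± 1.88 CPM (SD, n = 3), in the 1-week group at 24 h of rechallenge (7.13, 4.60 and 8.28 CPM).

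Casp12, the next caspase gene on chromosome 9, starts 8.65 kb beyond Casp4. In YUMM2.1, its controls ranged from 16.2 to 33.03 CPM and its IFNγ samples from 21.4 to 80.6 CPM, with 29 of 33 above every control and a rise of 1.10 (SE 0.089, adjusted p = 9.23e-14, edgeR). In CT26, 16 counts in the controls and 157 in the IFNγ samples gave a rise of 1.95 (SE 0.34, adjusted p = 3.45e-05, edgeR). The CT26 controls reached at most 1.91 CPM, so Casp12 passed the filter on low counts in that line only through IFNγ samples. Such an entry favours a rise. In YUMM2.1, Casp12 also passed the test at 24 h in naïve cells (0.87) and at 1, 2 and 3 weeks (1.01, 1.63 and 0.92).

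Gsdmd, the substrate of caspase-1 and caspase-11, was present almost only in CT26. On chromosome 15 from 75862327 to 75867408, it had 2719 counts over the 45 CT26 samples and 43 over the 45 YUMM2.1 samples, 20 of which had none. In the controls at 0 weeks the counts were 185 in CT26 (34.5, 50.1 and 32.4 CPM) and 3 in YUMM2.1 (1.08, 0 and 0.639 CPM), a ratio of 56 with a 95% counting interval from 18.9 to 274. Over all controls the ratio was 163 (738 against 6 counts, interval 74.4 to 445), and these intervals cover counting error only. The edgeR difference, YUMM2.1 minus CT26, was -5.80 on the log2 scale (SE 0.47, adjusted p = 1.04e-17), and it stayed between -6.52 and -5.31 in all 9 alternatives. Gsdmd entered that fit through its counts in CT26, as it did not pass the filter within YUMM2.1.

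IFNγ changed Gsdmd little. The CT26 controls ranged from 32.4 to 53.4 CPM (median 42.2) and the IFNγ samples from 32.7 to 73.8 CPM (median 47.0), and 13 of the 33 exceeded every control. The rise over all IFNγ groups was 0.24 (SE 0.075, adjusted p = 0.0236, edgeR), and it was lost with no filter on low counts (adjusted p = 0.131), without replicate 1 (0.217) and without replicate 3 (0.249). The highest group means were those of the rechallenged 3-week groups, 73.8, 61.4 and 71.2 CPM at 2 h and 68.0, 70.0 and 66.3 CPM at 24 h, which lay above the 3-week controls at 43.8, 45.4 and 47.8 CPM. Against 3 weeks without rechallenge (57.4, 49.0 and 46.3 CPM), these groups differed by 0.40 and 0.38 (adjusted p = 0.665 and 0.938, edgeR).

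Mlkl, the executioner of necroptosis, rose in both lines. It lies on chromosome 8 from 111311797 to 111338177 (minus strand), where the pseudogene Gm45712 overlaps it on the other strand. Whether reads of the 2 were told apart is not known, as the use of strand is not given. In YUMM2.1, the controls ranged from 27.9 to 45.8 CPM (median 41.3) and the IFNγ samples from 38.0 to 82.9 CPM (median 58.8), with 28 of 33 above every control. The rise was 0.55 (SE 0.070, adjusted p = 6.65e-08, edgeR). In CT26, the controls ranged from 25.1 to 49.7 CPM (median 35.0) and the IFNγ samples from 26.5 to 79.1 CPM (median 47.0), with 13 of 33 above every control and a rise of 0.45 (SE 0.093, adjusted p = 0.00041, edgeR). More IFNγ samples thus lay within the range of the controls in CT26 than in YUMM2.1. Across the 8 alternatives the rise was 0.53 to 0.61 in YUMM2.1 and 0.38 to 0.55 in CT26, past the threshold throughout.

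In naïve YUMM2.1 cells, Mlkl had 40.6, 27.9 and 33.9 CPM in the controls, 46.8, 42.1 and 42.7 CPM at 2 h, and 47.9, 58.0 and 66.5 CPM at 24 h. All treated samples lay above the controls, and the difference passed at 24 h (0.74, SE 0.17, adjusted p = 0.0138, edgeR) and not at 2 h (0.33, SE 0.18). In naïve CT26 cells the values were 42.2, 25.4 and 28.3 CPM in the controls, 50.6, 38.8 and 41.1 CPM at 2 h, and 72.7, 59.0 and 50.1 CPM at 24 h. The 24 h samples lay above all controls, with a difference of 0.89 (SE 0.23, adjusted p = 0.0211, edgeR). The adjusted p at 24 h rose above 0.05 in 4 of 9 alternatives in each line, reaching 0.56 in YUMM2.1 without replicate 3 and 0.328 in CT26 without replicate 2.

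Under chronic exposure the Mlkl differences from the control of the same week were 0.32, 0.56 and 0.43 at 1, 2 and 3 weeks in YUMM2.1 and 0.29, 0.10 and 0.33 in CT26, none past the test. The highest YUMM2.1 mean was 75.4 ± 7.5 CPM (SD, n = 3), at 2 weeks with 24 h of rechallenge, and the highest CT26 mean was 68.0 ± 13.2 CPM (SD, n = 3), at 1 week with 24 h of rechallenge. In YUMM2.1 the lowest 5 group means were those of the 4 controls (34.1 to 43.8 CPM) and the naïve 2 h group (43.9 CPM), and neighbours among them differed by less than the larger SD of the pair. In CT26, the 3-week group without rechallenge (51.3, 33.4 and 26.5 CPM) included the lowest IFNγ sample, replicate 3, 1 of the 3 samples with low totals.

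**Figure D3:**
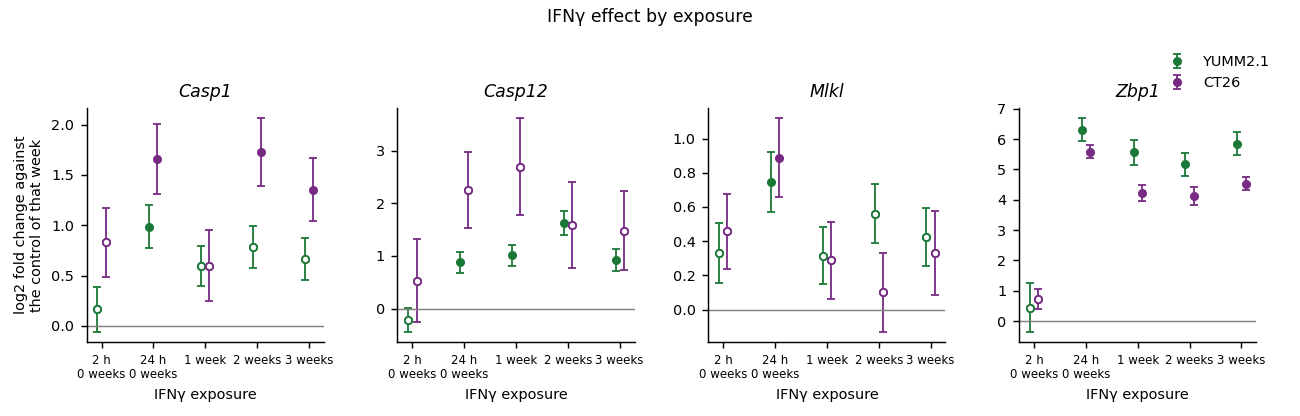
Log2 fold change with 1 standard error (y axes, scale differs between panels) of Casp1, Casp12, Mlkl and Zbp1 against the control of the same week, by edgeR, for IFNγ given for 2 h or 24 h to naïve cells or for 1, 2 or 3 weeks without rechallenge (x axes), in YUMM2.1 (green) and CT26 (purple). Open circles mark an adjusted p of 0.05 or more. The 2 comparisons of naïve cells share the 0-week control. No gene shown passed at 2 h, and Zbp1 lies above 4 on the log2 scale in every later comparison of both lines.

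Ripk3, the kinase that acts upstream of Mlkl, was at or near 0 in both lines. It was not counted in any of the 45 CT26 samples, which with 56549425 counts in all allows a level of up to 0.0531 CPM (3 counts over the line). In YUMM2.1 it had 32 counts in 14 samples, 15 in the controls (0.626 CPM over their summed totals, 95% interval 0.351 to 1.03) and 17 in the IFNγ samples (0.37 CPM, interval 0.216 to 0.593). Over all controls, the 95% counting interval of the ratio of YUMM2.1 to CT26 began at 2.71. With no filter on low counts, the IFNγ effect in YUMM2.1 was -1.18 (SE 0.58, adjusted p = 0.377, edgeR). The IFNγ groups of 1 week at 2 h, 2 weeks at 0 h and 2 h, and 3 weeks at 0 h had no count. That effect averages over groups, so its size and error cannot be relied on.

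**Figure D4:**
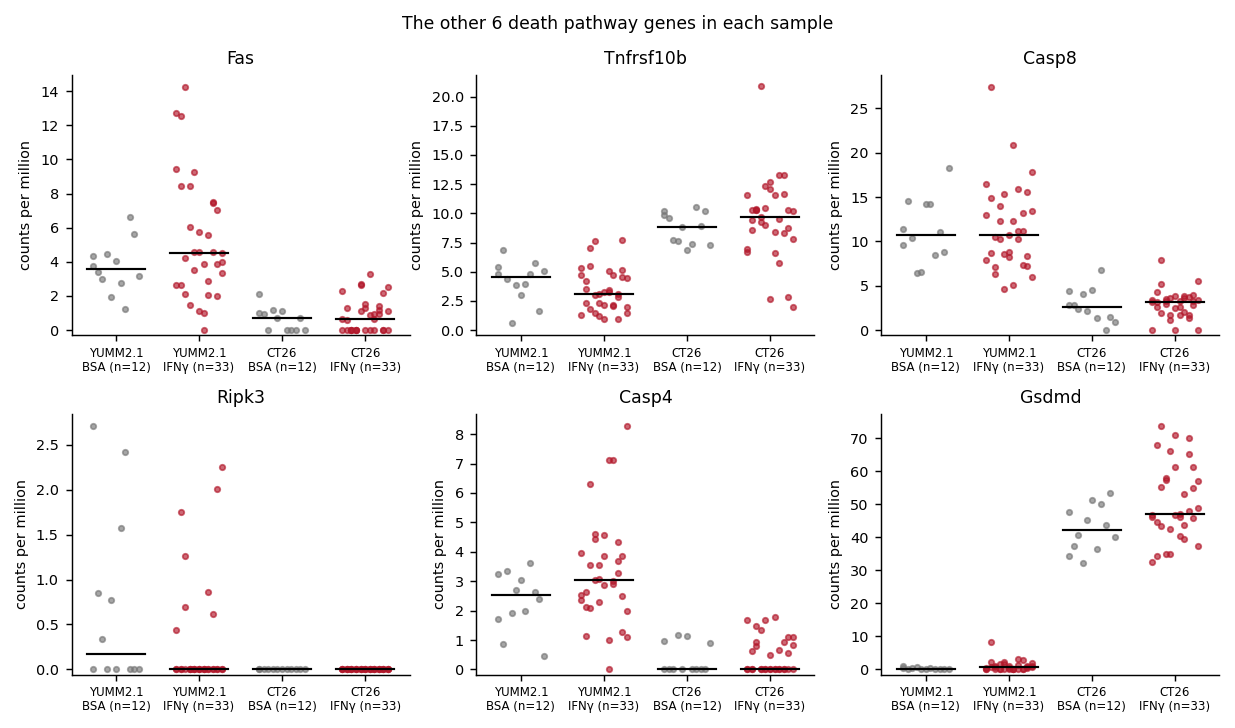
CPM (y axes) of Fas, Tnfrsf10b, Casp8, Ripk3, Casp4 and Gsdmd in each of the 12 control samples (grey, marked BSA) and 33 IFNγ samples (red) of YUMM2.1 and CT26 (x axes), with a black line at the median. Gsdmd separates the lines, with CT26 samples at 32.4 CPM or more and YUMM2.1 samples at 8.44 CPM or less, and Ripk3 is at 0 in all 45 CT26 samples.

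Casp8, the initiator caspase shared by both death receptors, did not pass the test in any comparison. It lies on chromosome 1 from 58795374 to 58847503, where Gm37760 overlaps it on the same strand. In YUMM2.1, it had 6.39 to 18.3 CPM in the controls (median 10.7) and 4.63 to 27.4 CPM in the IFNγ samples (median 10.7), with full overlap and a difference of 0.0050 (SE 0.16, 95% interval -0.31 to 0.32, adjusted p = 0.995, edgeR). In CT26, it had 167 counts, 0 to 6.80 CPM in the controls and 0 to 7.93 CPM in the IFNγ samples, and was not tested. The largest difference of Casp8 from a control in YUMM2.1 was at 3 weeks without rechallenge, where 13.9, 17.9 and 20.9 CPM stood against control values of 11.01, 6.58 and 9.58 CPM (0.87, SE 0.38, adjusted p = 0.378, edgeR). Those samples did not overlap with the controls. With 2 h of rechallenge the values were 6.29, 8.33 and 10.7 CPM, a difference of -0.96 from the samples without it (SE 0.40, adjusted p = 0.31, edgeR).

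Of the death receptors, Fas was low in both lines and passed no test. In YUMM2.1 it had 314 counts, 1.21 to 6.61 CPM in the controls (median 3.59) and 0 to 14.3 CPM in the IFNγ samples (median 4.52), with 10 of 33 above every control. The difference was 0.35 (SE 0.27, 95% interval -0.19 to 0.88, adjusted p = 0.455, edgeR), a range that holds both no change and a rise as large as that of Casp1. In CT26 it had 44 counts, with none in 19 of 45 samples, and was not tested within that line. The gene is on chromosome 19 from 34290666 to 34327772 (plus strand), and Gm27818 lies within it on the same strand.

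Tnfrsf10b, the TRAIL receptor gene on chromosome 14 from 69767472 to 69784411, did not respond to IFNγ beyond its spread. In YUMM2.1, the controls had 0.639 to 6.82 CPM (median 4.58) and the IFNγ samples 0.914 to 7.70 CPM (median 3.10), with a difference of -0.33 (SE 0.25, 95% interval -0.82 to 0.17, adjusted p = 0.445, edgeR). In CT26, the controls had 6.85 to 10.5 CPM (median 8.86) and the IFNγ samples 1.96 to 20.9 CPM (median 9.70), with a difference of 0.079 (SE 0.15, 95% interval -0.22 to 0.38, adjusted p = 0.793, edgeR). It was, however, the 1 gene of the 4 that differed between 3 weeks and 1 week of IFNγ in CT26, where 3.97% of all tested genes were called. The 1-week samples had 2.83, 2.67 and 9.39 CPM and the 3-week samples 20.9, 7.80 and 6.62 CPM, so the groups overlapped, and replicate 3 of each was a sample with a low total. The difference of 1.81 (SE 0.48, adjusted p = 0.0195, edgeR) fell to 0.62 (adjusted p = 0.725) without replicate 1, which held the value of 20.9 CPM, and was also lost without replicate 2 (1.97, adjusted p = 0.176). In YUMM2.1 no gene of the set was called between 3 weeks and 1 week by edgeR or DESeq2, and none had an unadjusted p below 0.05, against 0.115% of all tested genes.

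Among the tested genes of the set, the largest differences between the 0-week controls of the 2 lines were those of the pyroptosis genes Gsdmd and Casp1. In a joint fit of the 30 groups, 3 of 6 tested genes of the set differed between the 0-week controls, where 46% of all 10339 tested genes did. That share is near the one over all genes. Within the lines, Gsdmd had passed the filter in CT26 only, and Casp8 and Fas in YUMM2.1 only. These genes entered the joint fit through the line with more counts, so their presence among the 6 favours a difference between lines. Casp1 was higher in YUMM2.1 by 2.21 (SE 0.30, adjusted p = 2.26e-09, edgeR), with 33.03, 43.6 and 30.04 CPM there against 5.63, 4.95 and 8.83 CPM in CT26. Gsdmd was lower in YUMM2.1, as given above. Tnfrsf10b was also lower in YUMM2.1, with a difference of -1.55 (SE 0.46, adjusted p = 0.00395, edgeR), with 5.42, 4.85 and 0.639 CPM against 9.85, 10.5 and 7.65 CPM in CT26, and that difference lost its call in 1 of 9 alternatives (highest adjusted p 0.0633). Casp1 and Gsdmd thus ranked the lines in opposite order.

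For the other 3 tested genes, the lines were not distinguished. Mlkl differed by -0.040 (95% interval -0.45 to 0.37, adjusted p = 1, edgeR), Casp8 by 0.74 (interval -0.16 to 1.65, adjusted p = 0.187) and Fas by 1.52 (interval -0.12 to 3.16, adjusted p = 0.132). Over all controls, the summed counts gave ratios of YUMM2.1 to CT26 of 1.15 for Mlkl (counting interval 1.04 to 1.28), 3.81 for Casp8 (2.81 to 5.25), 5.84 for Fas (3.11 to 12.1) and 6.68 for Casp4 (2.87 to 19.0). These intervals hold no spread between samples.

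The IFNγ effect itself differed between the lines for Casp1 alone among the 6 tested genes, where 0.87% of all tested genes differed. The effect in YUMM2.1 minus that in CT26 was -0.88 (SE 0.17, adjusted p = 0.000592, edgeR), and it was -0.65 with an adjusted p of 0.292 without replicate 2. For Mlkl the difference of effects was 0.067 (SE 0.12, 95% interval -0.17 to 0.30, adjusted p = 0.998, edgeR). For Gsdmd and Fas, groups without any count left the difference of effects with no usable error.

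In the wider pathways, 71 other genes in 4 lists were followed, and the filter kept 44 of them in YUMM2.1 and 41 in CT26. Over all IFNγ groups, 10 were higher and 2 lower in YUMM2.1, where 5.38% of all tested genes were higher and 11.5% changed in either direction. In CT26, 9 were higher and 1 lower, where 6.29% of all tested genes were higher and 14.2% changed. A gene near 0 in the controls could pass the filter only through IFNγ samples. This favours rises among the tested genes, in these lists and among all genes. The necroptosis list had 2 of 6 tested genes higher in each line, with list medians of 0.32 (YUMM2.1) and 0.35 (CT26) on the log2 scale, beside medians over all tested genes of 0.00545 and 0.00328. These 2 were Zbp1, a sensor of nucleic acids that can recruit RIPK3, and Tlr3, a receptor for double-stranded RNA.

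Zbp1 had the largest change of all these genes. In YUMM2.1, its controls had 0 to 1.61 CPM, its 24 h naïve samples 56.4 to 73.3 CPM and its IFNγ samples in all 0.726 to 158 CPM, with a rise of 5.54 (SE 0.28, adjusted p = 5.82e-21, edgeR). Among CT26 samples, the controls had 2.28 to 16.1 CPM and the 24 h naïve samples 277 to 346 CPM, with a rise of 4.61 over all IFNγ groups (SE 0.11, adjusted p = 1.41e-32, edgeR). In each line, 30 of 33 IFNγ samples exceeded every control. The naïve 2 h samples had 0.726 to 1.33 CPM in YUMM2.1 and 6.59 to 13.3 CPM in CT26, within or close to the range of the controls. Tlr3 rose by 1.47 in YUMM2.1 (SE 0.35, adjusted p = 0.00306, edgeR) and by 2.54 in CT26 (SE 0.39, adjusted p = 2.91e-06, edgeR), and the antisense gene Gm45542 overlaps it. The call in YUMM2.1 was lost without replicate 2 (adjusted p = 0.0996, edgeR).

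In the list of death receptors, ligands and adaptors, 2 of 9 tested genes were higher in YUMM2.1 (median 0.067) and 2 of 8 in CT26 (median 0.17), against 5.38% and 6.29% of all tested genes, and none was lower. Tnfrsf1a, a receptor for tumour necrosis factor, rose in both lines, by 0.71 (SE 0.15, adjusted p = 0.000806, edgeR) and 0.60 (SE 0.17, adjusted p = 0.0109, edgeR). Ripk1, the kinase recruited to that receptor, rose in YUMM2.1 by 0.91 (SE 0.22, adjusted p = 0.00327, edgeR) and had a value of 0.60 in CT26 that did not pass (adjusted p = 0.101). Its annotated span overlaps Serpinb6a on the other strand. Daxx, a nuclear protein first described as a partner of Fas, rose in CT26 by 0.63 (SE 0.12, adjusted p = 0.00027, edgeR) and had a value of 0.037 in YUMM2.1. The call of Tnfrsf1a in CT26 was lost without replicate 1 and without replicate 3 (adjusted p up to 0.154), and that of Ripk1 in YUMM2.1 without replicate 1 (0.0939, edgeR). The 2 effects on Daxx differed by -0.62 (SE 0.17, adjusted p = 0.041, edgeR).

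In the list of mitochondrial apoptosis genes and other caspases, 5 of 23 tested genes were higher and 2 lower in YUMM2.1 (median 0.077), and 4 of 21 were higher and 1 lower in CT26 (median 0.11). Of all tested genes, 11.5% and 14.2% changed in either direction. Bak1, a pore-forming protein of the outer mitochondrial membrane, rose by 0.87 and 0.66, and Bid, which caspase-8 cleaves, rose by 0.48 and 0.30. Called in YUMM2.1 and not in CT26 were Bcl2l2 (0.98, against 0.72 with an adjusted p of 0.129 in CT26) and Cycs (0.19, against 0.11 with an adjusted p of 0.0579 in CT26), which encode an anti-apoptotic BCL-2 relative and cytochrome c. Their effects did not differ between the lines by the test (0.21 and 0.044, adjusted p = 1 and 0.978, edgeR). Mcl1, an anti-apoptotic gene, was higher in CT26 (0.61, adjusted p = 0.0157, edgeR) and had a value of 0.12 in YUMM2.1, and the difference of the effects (-0.52) had an adjusted p of 0.566. The genes that fell were Bad in both lines (-0.23 and -0.45) and Bax in YUMM2.1 (-0.29, adjusted p = 3.7e-06, edgeR), both promoters of cell death, with -0.11 for Bax in CT26 (adjusted p = 0.0998). Several of these calls were lost in alternatives, with the highest adjusted p without replicate 1 unless stated. Bad lost its call in YUMM2.1 in 5 of 8 (adjusted p up to 0.193, edgeR). Bak1 lost its call in 5 of 8 in CT26 (up to 0.235) and in 2 of 8 in YUMM2.1 (up to 0.346). Bcl2l2 lost it in 3 of 7 (up to 0.19), Mcl1 in 3 of 8 (up to 0.134, without replicate 3), Cycs in 1 of 8 (0.147), and Bid in CT26 in 1 of 8 (0.128). Bcl2l2 had at most 4.85 CPM in the YUMM2.1 controls and passed the filter on low counts there through IFNγ samples. Bad, Bak1, Bax, Bcl2l2 and Bid each overlap another annotated gene.

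Of the inflammasome list, Casp12 was the 1 gene that passed among 6 tested in each line, with list medians of 0.12 in YUMM2.1 and -0.093 in CT26. Of all tested genes, 5.38% were higher and 11.5% changed in either direction in YUMM2.1, and 6.29% and 14.2% in CT26. Among the genes that did not pass were Gsdme, which encodes another gasdermin (-0.11 in YUMM2.1 and -0.090 in CT26), and Aim2, a DNA sensor (0.12 in YUMM2.1). Between the 0-week controls of the 2 lines, 9 of 46 tested genes of the 4 lists were higher and 9 lower in YUMM2.1, where 46% of all tested genes differed.

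The genes whose group means most resembled those of Casp1 over the 15 groups of each line were Psme1, Psme2 and Psmb10 (mean of the 2 Pearson correlations of log2 CPM 0.95, 0.946 and 0.944). For Mlkl they were H2-M3, Bst2 and Isg20 (0.844, 0.83 and 0.82), and for Tnfrsf10b they were Lrrc41, Kidins220 and Wbp1 (0.699, 0.693 and 0.666). The lines could be uneven, with Lrrc41 at 0.478 in YUMM2.1 and 0.92 in CT26. By Spearman correlation the lists changed, to Psmb10, Psme1 and H2-T22 for Casp1 and to Apol10b, Bst2 and Nmi for Mlkl. For Tnfrsf10b the Spearman list was Abcb1b, Acsl4 and Kidins220. Casp1 and Mlkl themselves correlated at 0.821 in YUMM2.1 and 0.636 in CT26, and Casp1 and Gsdmd at 0.641 in CT26. These values describe 15 group means that share libraries and depth, among 7809 genes compared.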

How the data were processed

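The authors deposited raw counts, whole numbers for each gene in each of the 90 samples, with no normalization or pooling. Per the labels, RNA came from triplicate experiments and was sequenced by 3′ digital gene expression. The submitters' processing notes name Salmon 0.13.1 and the mm10 build, and the study's methods name tximport. Whether molecular identifiers were counted and whether strand was used is not given in the sources used here. All 45 samples of each line were used, since the samples that the study left out are not named in the sources used here. Counts were analysed in R 4.3.3 with edgeR 4.0.16: filterByExpr by group, TMM scaling, a quasi-likelihood fit of the 15 groups of a line (of all 30 groups for comparisons between lines) and Benjamini-Hochberg adjustment over all tested genes, with a threshold of 0.05. CPM are counts divided by the TMM-scaled total and set to the usual common scale. Standard errors were taken as the absolute log2 fold change divided by the square root of the test's F. The 95% intervals of log2 fold changes are the estimate plus and minus its standard error times a normal quantile, and hold the spread between samples. Intervals on counts are exact 95% intervals. These and the floors cover counting error only, and the floor is 3 counts. Promoters are from RefSeq (GRCm38.p6), and gene positions and overlaps from GENCODE M21 (GRCm38). The code was tested on simulated data.

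The genes and lists were chosen with earlier results of these data known. From the lists, genes called over all IFNγ groups in either line were named, with Gsdme and Aim2 added after their values were seen, except 1 gene that is counted in its list and not reported here. The groups were compared with their control of the same week, or for rechallenge with the same week at 0 h. The alternatives were DESeq2 1.42.0, library totals without TMM, no filter on low counts, a replicate block, leaving out each replicate number, leaving out the 3 samples with low totals (under 25% of the median), fitting only the groups compared, a prior count of 0.5 in place of 2, and Spearman correlation. No 2 of the 90 pairs of samples within a group had identical counts, and every pair differed by more than sampling noise (lowest chi-square per degree of freedom 1.83).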

Additional observations from a re-analysis of the deposited data

Results flagged for a closer look

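The mean IFNγ effect on Casp1 differed between the lines (YUMM2.1 minus CT26, -0.878 on the log2 scale, adjusted p = 0.000592, edgeR), with Casp1 higher in the YUMM2.1 than in the CT26 controls. The effect on Daxx also differed between the lines (-0.623, adjusted p = 0.041, edgeR), with 12 control and 33 IFNγ samples in each. The 24 h response after 3 weeks of IFNγ differed from that of naïve cells for Daxx in CT26 (-1.66, adjusted p = 0.0256, edgeR). The same difference for Zbp1 was -6.69 in YUMM2.1 (adjusted p = 4.9e-15, edgeR) and -5.4 in CT26 (adjusted p = 4.16e-19, edgeR). At 3 weeks, Zbp1 had 31.8 to 45.2 CPM without rechallenge and 22.7 to 31.6 CPM at 24 h in YUMM2.1, and 251.8 to 294.8 and 295.3 to 325.2 CPM in CT26. In naïve cells, it went from 0 to 1.21 CPM in the controls to 56.4 to 73.3 CPM at 24 h in YUMM2.1, and from 5.30 to 7.74 CPM to 277 to 346 CPM in CT26.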

How the results depend on the processing

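The number of called genes of the set over all IFNγ groups and between the 0-week controls of the lines stayed within 1.5 times its value in every alternative. The 2 calls in naïve YUMM2.1 cells became 1 with no filter and with only the groups compared, and 0 to 1 when a replicate number was left out. The 0 calls under chronic exposure in YUMM2.1 became 1 with DESeq2, 2 with library totals and 1 with no filter. In CT26, the 2 calls in naïve cells became 1 with only the groups compared, and leaving out a replicate number gave 0 to 1 there, 0 to 2 under chronic exposure, 0 to 1 at rechallenge, 0 to 1 for duration and 0 to 1 for the difference of IFNγ effects between lines. The call for duration became 0 with no filter and with only the groups compared. DESeq2 gave no adjusted p for 5 results, which are left out of these counts. The cause of these changes was not tested, beyond the fewer samples of the fits without a replicate number.

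Directions reversed only for differences that were not called. Casp8 over all IFNγ groups in YUMM2.1 was -0.00766 with no filter and -0.0778 to 0.163 when a replicate number was left out, and Tnfrsf10b in CT26 was -0.00176 to 0.158. Mlkl between the 0-week controls was 0.126 with library totals and -0.132 to 0.0368 when a replicate number was left out. In the difference of IFNγ effects, these fits gave -0.358 to 0.423 for Casp8, -0.0453 to 0.15 for Mlkl, and -0.128 to 0.568 for Fas.

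Samples with the same replicate number did not deviate together (mean correlation -0.001 in YUMM2.1 and 0.00795 in CT26), so the numbers do not pair the samples. With the replicate block, the difference of Tnfrsf10b between 3 weeks and 1 week in CT26 was 1.82 (adjusted p = 0.0187, edgeR), and no count of called genes of the set moved by over 1.5 times. Low counts limit what can be said of Casp4, Ripk3 and Fas in CT26, and of Gsdmd in YUMM2.1, which had no count in 26, 45, 19 and 20 of 45 samples. Casp8 in CT26, at 0 in 4 of 45 samples, did not pass the filter, and with no filter its IFNγ effect was 0.068 (SE 0.32, adjusted p = 1, edgeR).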
